A study of Mus musculus with 6 samples.

Results

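Leukocyte adhesion and homing molecules are described here by 9 genes: the endothelial selectins Sele and Selp, the selectin ligand Selplg, the immunoglobulin-type adhesion molecules Icam1, Icam2, Vcam1 and Madcam1, and the integrin chains Itgam and Itgb2. All 9 had probes on the array, 14 in total, out of 23462 genes named on it. The arrays held colon RNA of male mice, 3 controls and 3 with an Islr knockout, 1 array per mouse. Islr encodes a secreted protein with leucine-rich repeats and an immunoglobulin domain. Per the sample source, all 6 mice, the controls included, drank 3.5% dextran sulfate sodium, which injures the colon lining, for 5 days and then recovered for 1 day. A separate treatment field of the labels states no treatment, so the course is given as the source describes it. The construct behind the knockout, the cells in which it acts, the mouse strain and the ages are not given in the sources used here. The series' design text mentions a flow separation step before lysis without naming a gate, and markers of colon epithelium were well above background on all 6 arrays for 6 of 6 tested genes. Testing itself required this on all arrays of at least 1 group, so the count was partly fixed by that filter.

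Leukocytes leave the blood in steps. Selectins on activated endothelium catch leukocytes by sugar-bearing ligands such as Selplg and make them roll; chemokines then switch leukocyte integrins to a binding form, and the integrins hold to Icam and Vcam molecules before the cells cross the vessel wall. In inflamed colon, cytokines acting through NF-kB are known to raise Sele, Icam1 and Vcam1, whereas Madcam1 marks the vessels by which lymphocytes home to the gut.

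Signals are log2 values relative to the 75th percentile of the same array, so 0 is that percentile, and a difference is knockout minus control. Each gene is represented by its tested probe with the highest mean. A probe that passed had a limma p adjusted over all 35351 tested probes under 0.05. Adjusted p-values below are all of this kind. The 75th percentile lay between 6353 and 7110 intensity units in controls and between 4910 and 5820 in knockouts, and 69.4% to 75.4% of the spots of an array were well above background. Control replicate 1 and knockout replicate 1 had the most outlier spots (13.6% and 16.0%). Islr itself, as a check of the labels, gave -1.40, -0.93 and -1.31 in the knockout mice. The control mice gave 1.57, 1.24 and 1.21, of which the first, an outlier spot, did not enter the fit. Its difference was -2.44 (SE 0.21, adjusted p 0.0171), with an adjusted p of 0.0580 without knockout replicate 3. The controls shared slide row 1 and the knockouts slide row 2; row and genotype cannot be told apart.

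The sequences upstream of 4 members are shown because NF-kB and AP-1 are known to act near the start of cytokine-induced endothelial genes. They are the 250 bases before the annotated start, 5′ to 3′, from the RefSeq promoter table of GRCm38.p6, which held 5 of the 9 genes. Capitals mark matches, on either strand, to the motifs that were searched: NF-kB (GGG and TTCC spaced by 3 bases of any kind), a palindromic NF-kB form (GGAAATTCC), AP-1 (TGANTCA), PU.1 (GAGGAA) and the TATA box (TATAAA). No motif matches overlapped in these windows.
Sele (chr1:164047984-164048233, plus strand): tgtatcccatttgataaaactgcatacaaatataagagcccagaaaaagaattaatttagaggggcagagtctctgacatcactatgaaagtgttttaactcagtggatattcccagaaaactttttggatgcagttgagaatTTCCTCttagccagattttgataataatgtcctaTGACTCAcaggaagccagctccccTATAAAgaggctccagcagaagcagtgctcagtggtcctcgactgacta
Selp (chr1:164115014-164115263, plus strand): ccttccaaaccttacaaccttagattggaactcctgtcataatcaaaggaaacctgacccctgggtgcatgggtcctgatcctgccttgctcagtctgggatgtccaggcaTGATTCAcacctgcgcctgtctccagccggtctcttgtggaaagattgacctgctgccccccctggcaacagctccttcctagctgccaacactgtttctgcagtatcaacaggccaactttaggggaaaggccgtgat
Icam1 (chr9:21015690-21015939, plus strand): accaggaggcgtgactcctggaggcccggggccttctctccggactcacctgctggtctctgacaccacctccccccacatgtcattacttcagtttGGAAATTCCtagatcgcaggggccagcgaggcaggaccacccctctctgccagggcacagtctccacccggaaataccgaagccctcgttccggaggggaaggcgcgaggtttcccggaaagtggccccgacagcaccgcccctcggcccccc
Madcam1 (chr10:79664309-79664558, plus strand): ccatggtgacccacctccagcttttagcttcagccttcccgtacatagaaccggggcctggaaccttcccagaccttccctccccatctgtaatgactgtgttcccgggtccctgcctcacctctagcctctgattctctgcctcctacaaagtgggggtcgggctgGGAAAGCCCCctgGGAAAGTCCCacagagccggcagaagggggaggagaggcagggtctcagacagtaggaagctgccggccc
Madcam1 held 2 matches to the NF-kB motif, from -83 to -74 and from -70 to -61 relative to the start; 4.65% of 32851 promoter windows of this length held at least 1. Icam1 held the palindromic form from -153 to -145, which 0.286% of the windows held. Sele held an AP-1 match from -73 to -67 and Selp one from -139 to -133, against 6.75% of the windows. Sele also held a TATA box from -49 to -44 (12.4% of windows) and a PU.1 match from -107 to -102 (23.3%). The Itgam window, not printed, held 2 PU.1 matches, from -84 to -79 and from -15 to -10. A match is a description of these letters only.

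Selp, Selplg, Icam1, Icam2, Vcam1 and Itgb2 had lower mean signals in the knockout at an unadjusted p under 0.05, with the largest difference at Selp (-1.79). Madcam1 was lower with a wide interval, the Itgam interval (-0.16 to 0.70) included 0, and Sele was too dim to test. By standing probe (the brightest) 0 of the 8 tested members passed, against 3.82% of all 16451 genes tested. The unadjusted threshold was reached by 6 of 8, all lower in the knockout, against 14.5% of all genes in that direction. The difference was below 0 for 7 of 8 members, against 48.8% of all genes, and the median was -0.85, against 0.01 over all genes. Of the 11 member probes usable on all 6 arrays 7 were lower in the knockout with no overlap between the groups, against 18.0% of 30240 such probes. The standing probes usable on all 6 arrays were lower without overlap for 4 of 7 members, against 19.4% of such genes. At the level of probes, 1 of 13 passed, a Selp probe lower in the knockout, against 3.97% of all probes in either direction and 2.42% in this one. That probe was tested because the controls were well above background; with probes well above background on all 6 arrays, or with no filter on dim probes, 0 member probes passed. An unadjusted p under 0.05 was reached by 10 of 13 probes, all lower, against 14.1%. With array weights 4 of 8 members passed, against 21.8% of all genes under that setting.

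**Figure D1:**
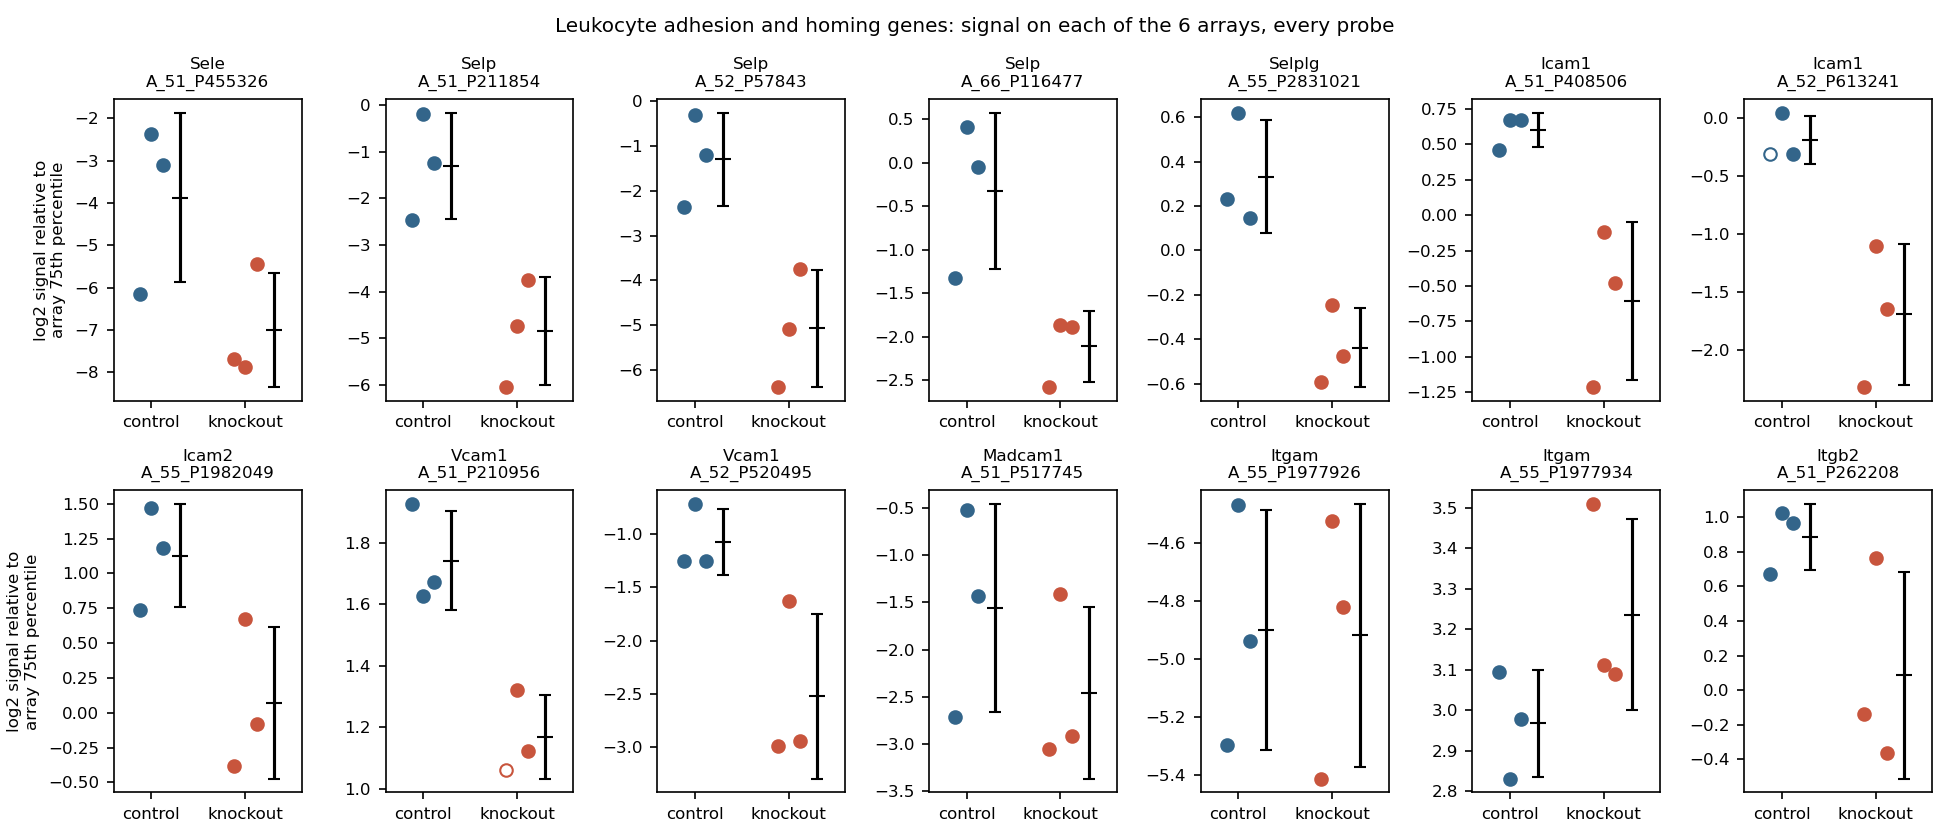
Signal (log2, relative to the array's 75th percentile) of each of the 14 probes of the 9 genes on the 3 control and 3 knockout arrays. Each panel has its own axis; points are arrays, open points are outlier spots left out of the fit, and the bar is the mean ± SD over all 3 arrays. At Selp, Icam1, Icam2, Vcam1 and Selplg every knockout lies below every control, and at Itgam, Itgb2, Madcam1 and Sele the groups overlap.

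P-selectin (Selp) sits in granules of endothelial cells and platelets and reaches the surface within minutes of activation. Its brightest probe (A_66_P116477) gave -1.32, 0.41 and -0.05 in controls against -2.58, -1.86 and -1.89 in the knockouts. No knockout reached the lowest control. Its mean was 3.46-fold lower (log2 difference -1.79, SE 0.46, adjusted p 0.0739). The probe A_52_P57843 gave -2.37, -0.30 and -1.21 in controls against -6.37, -5.09 and -3.75 in the knockouts. That difference was -3.78 (SE 0.76) and passed (adjusted p 0.0487). The probe A_51_P211854 differed by -3.54 (SE 0.74, adjusted p 0.0520). On both dimmer probes 2 of 3 knockout arrays were well above background. Knockout replicate 1 lay below the lowest signal well above background on that array (-5.38), so the size of both differences is not exact. The call of A_52_P57843 was kept when control replicate 1 was left out and lost when any of the other 5 arrays was, with adjusted p-values from 0.0418 to 0.125. Without control replicate 1, which had the lowest Selp among controls, the brightest probe passed as well (difference -2.29, adjusted p 0.0279).

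The Selp probes gave different sizes. On the same array, A_52_P57843 minus A_66_P116477 averaged -0.97 ± 0.23 over the controls and -2.96 ± 1.00 over the knockouts (SD, 3 arrays each), a shift of -1.99 with no overlap (exact permutation p = 0.1, two-sided, the smallest possible for 3 against 3; 0.233 adjusted over the 7 probe pairs compared). The shift of A_51_P211854 against the same probe was -1.75 (p = 0.1 in the exact permutation test), and the dimmer probes differed from each other by -0.24 (p = 0.2).

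E-selectin (Sele) is made by endothelium only after stimulation. Its single probe gave -6.15, -2.37 and -3.10 in controls against -7.69, -7.88 and -5.45 in the knockouts. It was well above background on 2 control arrays and 1 knockout array, which left it untested by the rule on dim probes. Control replicates 2 and 3 stood above the other 4 arrays, and control replicate 1 lay below knockout replicate 3. With no filter on dim probes the difference was -3.13 (adjusted p 0.182). Without control replicate 1 the remaining controls let the probe into the test, at -4.27 (adjusted p 0.0428). Knockout replicates 1 and 2 lay below the lowest signal well above background on their arrays (-5.38 and -5.57), so neither value is an exact difference.

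Selplg, the ligand on leukocytes that P-selectin binds, gave 0.23, 0.62 and 0.14 in controls against -0.59, -0.25 and -0.48 in the knockouts. The groups did not overlap, and both had a narrow spread (0.33 ± 0.25 and -0.44 ± 0.18, SD, n = 3 each). The difference was -0.77 (SE 0.19), 1.71-fold, with an adjusted p of 0.0693.

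Icam1, the cytokine-induced ligand of the beta2 integrins on endothelium and epithelium, gave 0.46, 0.67 and 0.67 in controls against -1.21, -0.12 and -0.48 in knockouts (A_51_P408506). Every knockout lay below every control, and the SD was 0.12 over the controls and 0.56 over the knockouts. The difference was -1.21 (SE 0.29), 2.31-fold lower, with an adjusted p of 0.0649. Its other probe differed by -1.56 (SE 0.38, adjusted p 0.0757) from 2 usable controls and 3 knockouts. Under normexp background correction with quantile normalization (0.0457), array weights (0.0185) and median centring (0.0370) the adjusted p of the brighter Icam1 probe was under 0.05. The mean of both probes gave -1.48 (adjusted p 0.0488) over whichever probes were usable on an array. There, control replicate 1 entered by the brighter probe alone (0.46), which raises the control mean, so that value mixes probe levels. Over arrays with both usable, a variant chosen after seeing the data, the mean of both probes gave -1.42 (adjusted p 0.0803).

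Icam2, which resting endothelium carries all the time, gave 0.74, 1.47 and 1.18 in controls against -0.38, 0.68 and -0.08 in the knockouts. The groups were separate by a small gap between control replicate 1 and knockout replicate 2. The difference was -1.06 (SE 0.32), 2.08-fold, with an adjusted p of 0.100.

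Vcam1, the ligand of the alpha4 integrins on activated endothelium and on stromal cells, was measured by probes that differed in size. The brighter one (A_51_P210956) gave 1.93, 1.63 and 1.67 in controls and 1.32 and 1.12 in knockout replicates 2 and 3, the spot of replicate 1 being an outlier spot at 1.06. Its difference was -0.52 (SE 0.19, adjusted p 0.156). The dimmer one (A_52_P520495) gave -1.26, -0.72 and -1.26 in controls against -2.99, -1.63 and -2.94 in knockouts, a difference of -1.44 (SE 0.39, adjusted p 0.0825). Neither overlapped between the groups. The dimmer probe passed without knockout replicate 2 (-1.89, adjusted p 0.0303). The mean of both probes gave -1.68 (adjusted p 0.170) over whichever were usable on an array. There, knockout replicate 1 entered by the dimmer probe alone (-2.99). That value therefore mixes probe levels, lies beyond the difference of either probe and is no measure of size. Over arrays with both usable, chosen after seeing the data, the mean of both probes gave -0.86 (adjusted p 0.114). The shift of the dimmer probe against the brighter on the same array was -0.87 with the outlier spot kept (p = 0.2 in the exact permutation test) and -0.69 without it.

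Madcam1, which binds the integrin alpha4beta7 of gut-homing lymphocytes, gave -2.71, -0.52 and -1.44 in controls against -3.05, -1.41 and -2.92 in the knockouts. The groups overlapped and each spanned more than the difference between them, which was -0.90 (SE 0.65, adjusted p 0.414, 95% interval -2.46 to 0.66). The difference was -1.48 without control replicate 1 and -0.38 without control replicate 2. Beside it, 4 genes of high endothelial venules, the vessels of lymphocyte entry in lymphoid tissue, differed by -0.16 to 0.87, with 2 of 4 lower and 0 passing and a median of 0.23 (-0.17 without control replicate 1); the sulfotransferase Chst4 was the highest (SE 0.19, adjusted p 0.0568).

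Itgam and Itgb2 form the myeloid receptor Mac-1, which binds Icam1, and Itgb2 also pairs with Itgal and Itgax. Itgb2 gave 0.67, 1.02 and 0.97 in controls against -0.14, 0.77 and -0.36 in the knockouts. Knockout replicate 2 lay above the lowest control. The difference was -0.80 (SE 0.31), 1.74-fold, with an adjusted p of 0.161. Itgam (A_55_P1977934) gave 3.09, 2.83 and 2.98 in controls and 3.51, 3.11 and 3.09 in the knockouts. The groups met at their edges, and the difference was 0.27 (SE 0.18, adjusted p 0.378, 95% interval -0.16 to 0.70). This probe was bright, at 49139 to 55902 intensity units, with 0.740% to 2.36% of spots brighter on the same array and none marked as saturated. The other Itgam probe, annotated to another transcript, was near background, at -5.30, -4.47 and -4.94 in controls against -5.41, -4.52 and -4.82 in knockouts, and differed by -0.02 (SE 0.30, adjusted p 0.977). With levels so far apart, which of these probes measures Itgam better was not tested. Itgam minus Itgb2 on the same array was 2.42, 1.81 and 2.01 in controls and 3.65, 2.34 and 3.45 in knockouts, a shift of 1.07 with overlapping groups (exact permutation p = 0.2, two-sided).

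**Figure D2:**
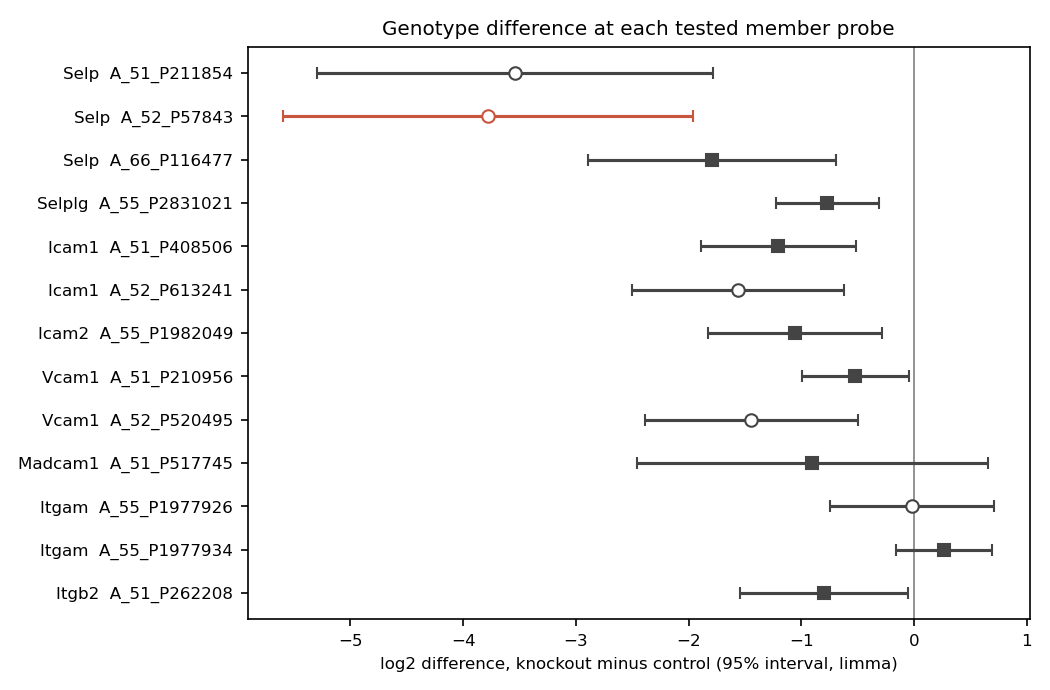
Log2 difference between knockout and control at each of the 13 tested member probes, with its 95% interval from limma. Filled squares are the probes that stand for a gene, open circles the other probes, and the coloured one (Selp A_52_P57843, -3.78) is the probe whose adjusted p was under 0.05; only Itgam and Madcam1 intervals include 0.

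Markers of the cells that carry these molecules were measured on the same arrays. All 10 tested endothelial genes of 11 listed were lower in the knockout with no overlap between the groups. Esam had no usable value in knockout replicate 2, so its groups were compared over fewer arrays. A lower signal without overlap held for 19.4% of all genes usable on 6 arrays. The endothelial differences ran from -1.70 (Pecam1) to -0.67 (Egfl7), with a median of -1.14. Of the 10 genes 0 passed. An unadjusted p under 0.05 was reached by 9 of 10, against 14.5% of all genes in that direction. Without knockout replicate 1 the endothelial median difference was -0.72. The median of the endothelial list was 0.96, 1.13 and 1.01 in controls against -1.05, 0.35 and 0.18 in the knockouts. Pan-leukocyte genes were lower for 9 of 10, by -1.57 (Cd53) to 0.03 (Cd52), with a median of -0.49 and 0 passing. Leaving out knockout replicate 3 moved it to -0.25, and leaving out control replicate 1 to -0.81. In bulk colon, fewer cells of a type and less RNA per cell cannot be told apart.

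Each endothelial member was therefore set against the endothelial median of its own array, and each leukocyte member against the pan-leukocyte median, as a description without a test. Icam1 minus the endothelial median averaged -0.43 ± 0.09 over the controls and -0.43 ± 0.25 over the knockouts (SD, 3 arrays each), so the groups had the same mean. Icam2 shifted by 0.15 and Madcam1 by 0.30 on this scale, both with overlap. Selp shifted by -0.58, with control replicate 1 (-2.28) below every knockout and the other controls above them. Vcam1 shifted by 0.63 with the outlier spot of knockout replicate 1 kept, which stood at 2.11 against 0.49 to 0.97 on the other arrays, and by 0.25 without that spot. Among leukocyte members, Itgb2 minus the pan-leukocyte median was -0.21, -0.50 and -0.51 in controls against -0.92, -0.55 and -0.85 in knockouts, a shift of -0.36. The groups were separate only by a small gap between control replicate 3 and knockout replicate 2. Selplg shifted by -0.34 and Itgam by 0.70, both with overlap. These values hold for the standing probe of each gene only. Relative to that probe on the same array, the other probes shifted further down, outlier spots kept. The shifts were -1.99 and -1.75 at Selp, -0.87 at Vcam1, -0.30 at Icam1 and -0.29 at Itgam.

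**Figure D3:**
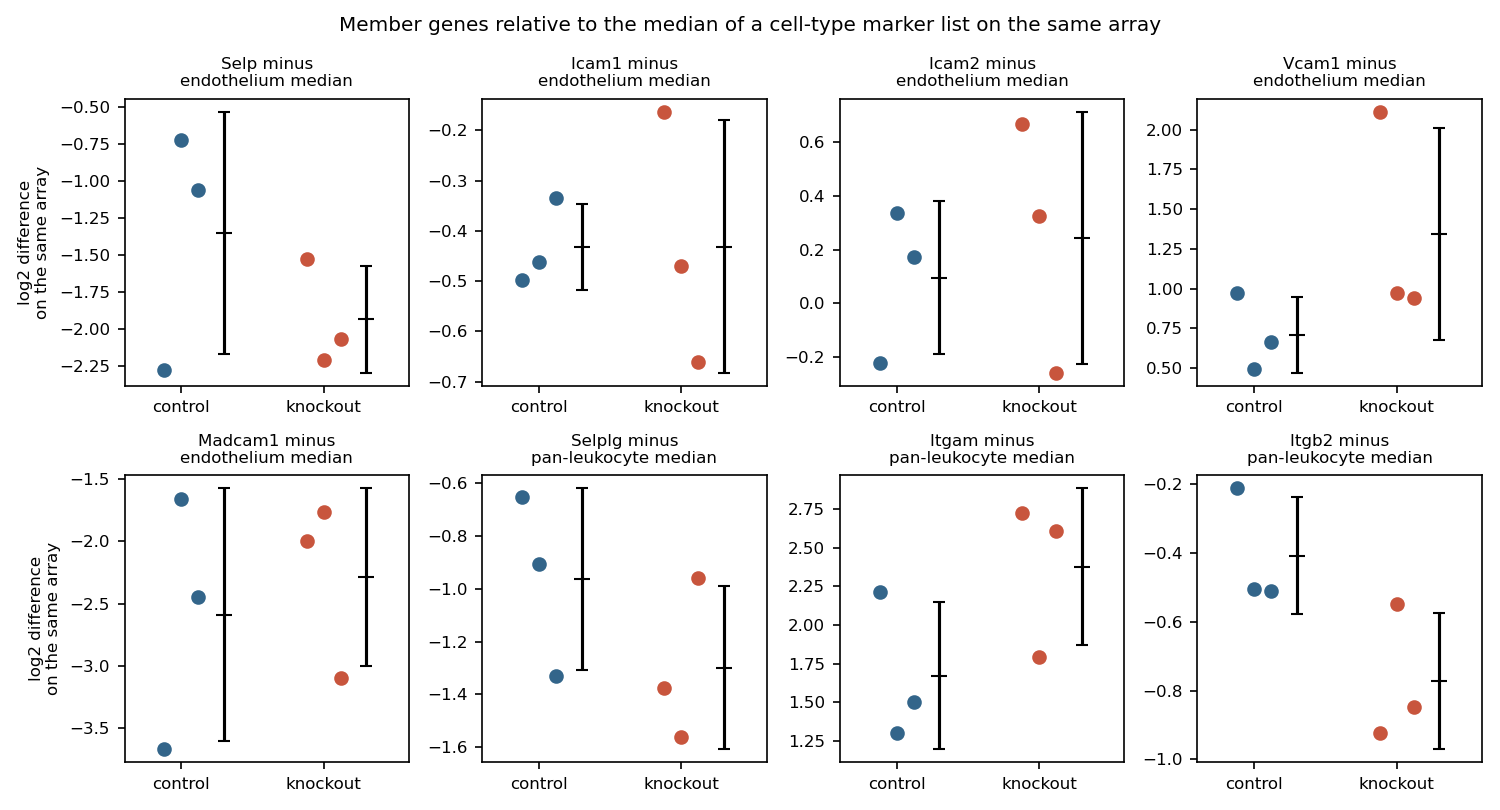
Log2 signal of each of 8 members minus the median of the endothelial or pan-leukocyte marker list on the same array, for 3 controls and 3 knockouts, with mean ± SD beside the points. Each member is shown by its standing probe only. At these probes the Icam1 groups have the same mean (-0.43), and only at Itgb2 are the groups separate, by a small gap.

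Markers of neutrophils, which carry Mac-1, had the lowest median difference (-3.52) of the cell type lists. Of 9 tested neutrophil markers, from 10 listed, 7 passed, all lower, against 3.82% of all genes in either direction. Their differences ran from -4.47 (Retnlg, a resistin-like granule protein) to -1.93 (Cxcr2, the chemokine receptor). The others were S100a8 (-3.92) and S100a9 (-3.73), the calprotectin chains, Mmp8 (-3.85) and Mmp9 (-2.86), collagenase and gelatinase of granules, and the lectin receptor Clec4d (-3.52). With control replicate 2 left out 0 of these passed, and with control replicate 3 or knockout replicate 3 left out 1 did, Mmp8. S100a8 and Retnlg had too few usable control spots to be tested without control replicate 2 or 3. Leaving out control replicate 1 gave 5, and leaving out knockout replicate 1 gave 4. On 2 of 3 knockout arrays Mmp8 and Mmp9 were well above background. The other 2 tested neutrophil markers, Csf3r (0.17) and Trem1 (0.18), did not pass and had bright probes (means of 3.02 to 3.21), as did Itgam. The remaining listed marker had too few usable control spots to be tested. With outlier spots kept it was higher in every knockout (3.08, 2.82 and 3.06) than in every control (2.50, 1.69 and 2.43). Macrophage and monocyte markers were lower for 7 of 9, with a median of -0.73 and 0 passing. T cell markers had a median of -0.24 and B and plasma cell markers of -0.88, with 0 passing in either. With an array left out the T cell median ran from -0.47 (without control replicate 1) to 0.05 (without knockout replicate 3). That of B and plasma cells ran from -1.39 (without knockout replicate 2) to -0.33 (without knockout replicate 3). Among platelet genes, of interest because platelets store Selp, 4 of 8 could be tested; Ppbp, a platelet chemokine, was at least 6.99-fold lower in the knockout, where it was well above background on no array (adjusted p 0.0170, and 0.0550 and 0.0555 without control replicate 2 and knockout replicate 3), and Itga2b (-0.28), Gp1bb (-0.24) and Gp6 (0.53) did not pass. Fibroblast markers, beside which Vcam1 of stromal cells can be read, were lower for 7 of 7, with a median of -0.72 and 1 passing, Pdgfrb (-1.17), which did not pass when any 1 of the 6 arrays was left out (adjusted p 0.0504 to 0.111). The fibroblast median was -0.45 without knockout replicate 1. The part of these cell types in the member differences was not tested.

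Other adhesion genes did not share 1 direction. A list of 63 genes gave 53 that could be tested, of which 0 passed and 18 had an unadjusted p under 0.05, against 28.2% of all genes; 32 were lower and 21 higher, with a median of -0.16. That median ran from -0.33 (without knockout replicate 2) to -0.06 (without control replicate 3). With array weights 12 of 53 passed, near the 21.8% of all genes that passed under that setting. Of the 16 tested genes of the selectin side 7 were lower and 9 higher. Cd44, a hyaluronan receptor that E-selectin can bind, was lowest (-1.45), and Chst2, a sulfotransferase, was at -1.33. A dimmer Cd44 probe passed (-1.48, SE 0.25, adjusted p 0.0369), but not without control replicate 2 or 3 or knockout replicate 1 or 3 (0.0733 to 0.109). The highest values of the list were those of the glycosyltransferases Fut4 (2.35, SE 0.48, adjusted p 0.0510), B3gnt3 (1.93) and St3gal6 (1.35), whereas Fut7 was at -0.11 and Gcnt1 at 0.13. Beside them, colon epithelium markers were higher for 6 of 6, with a median of 1.08 and 0 passing; the median was 0.52 without control replicate 2, the array with the lowest epithelial signal. The part of the epithelium in these values was not tested.

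The 9 other integrin chains tested had a median of -0.10 and a range of -0.53 (Itga2) to 0.34 (Itgb7), with none of the 9 under an unadjusted p of 0.05. Itgal, the alpha chain that makes LFA-1 with Itgb2, was at -0.44 (SE 0.21), Itgax at -0.00 (SE 0.22), and Itga4, the alpha chain of the Vcam1 and Madcam1 receptors, at -0.10 (SE 0.24). Of 9 genes that switch integrins on, 6 were lower, with Fermt3, the kindlin of blood cells, at -1.22 (SE 0.49, adjusted p 0.170). Of 14 genes of transmigration and other endothelial adhesion 8 were lower; Pecam1 (-1.70), Ackr1, a chemokine carrier of venules (-1.31), and Esam (-0.99) were lowest, and Cx3cl1, a membrane-bound chemokine, was highest (1.07, SE 0.33, adjusted p 0.102). Of 5 homing receptors 4 were lower, with Cx3cr1 at -0.78 (SE 0.26, adjusted p 0.116).

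Among cytokines that induce adhesion molecules, Il6, Il1a, Osm and Il1b had mean signals lower by over 2 on the log2 scale, and Tnf was at 0.14. Of 22 tested inducers and NF-kB genes 11 were lower and 1 passed, Osm, a cytokine of myeloid cells that acts on stroma and endothelium (-2.45, SE 0.37, adjusted p 0.0319). Osm did not pass without control replicate 2 (0.0914), control replicate 3 (0.0880) or knockout replicate 3 (0.0580). Il6 differed by -4.05 (SE 0.99, adjusted p 0.0671) and Il1a by -3.09 (SE 0.83, adjusted p 0.0799); both were well above background on 2 of 3 knockout arrays, and knockout replicate 1 lay below the lowest such signal, so these sizes are not exact. Il1b, well above background on all arrays of both groups, differed by -2.12 (SE 0.96, adjusted p 0.226). Tnf was at 0.14 (SE 0.39), Ifng at 0.39 (SE 0.29) and the NF-kB feedback genes Nfkbia and Tnfaip3 at -0.09 (SE 0.22) and 0.18 (SE 0.21). None of these 7 genes had an adjusted p under 0.05. Klf2, a transcription factor of quiescent endothelium, was at -0.75 (SE 0.27, adjusted p 0.141). The highest of the list were Klf4 (0.92, SE 0.36, adjusted p 0.195) and Irf1 (0.85, SE 0.23, adjusted p 0.0803). The median of the 22 genes was -0.01, and 7 had an unadjusted p under 0.05, against 28.2% of all genes. That median ran from -0.34 (without control replicate 1) to 0.16 (without control replicate 3).

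**Figure D4:**
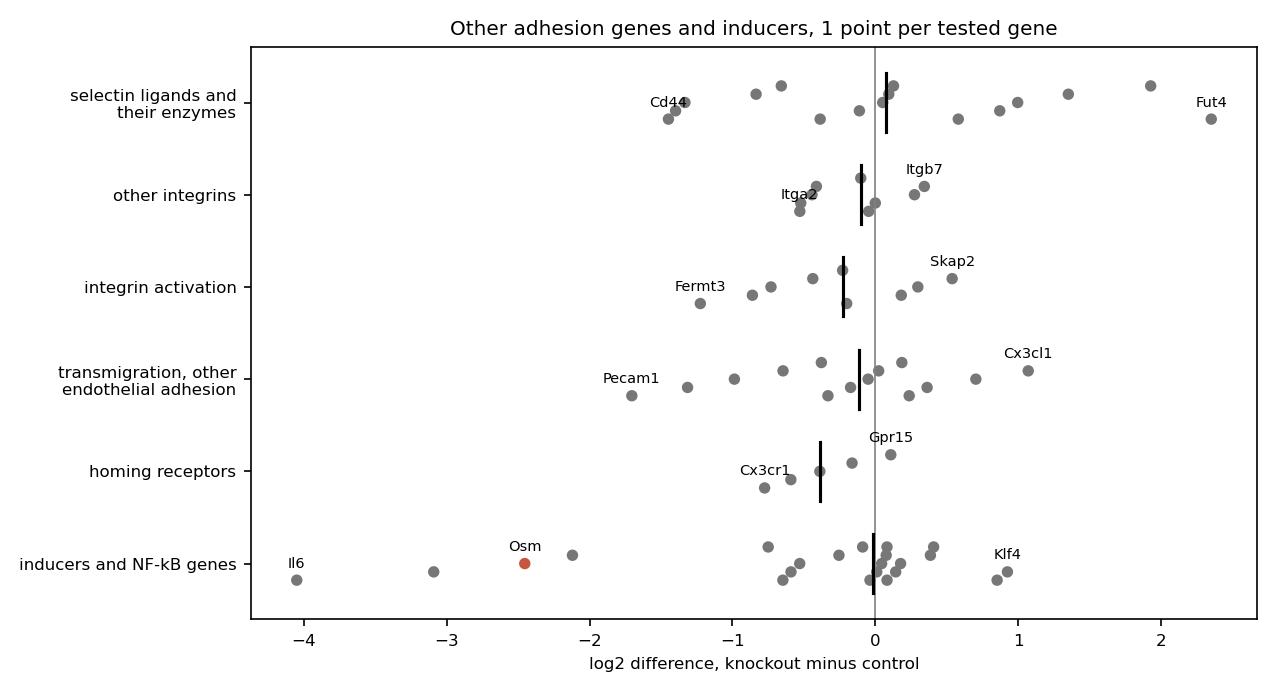
Log2 difference between knockout and control for each tested gene of 5 groups of other adhesion genes and of the inducer list; the bar is the group's median and the coloured point is Osm, the gene that passed. Medians lie from -0.39 (homing receptors) to 0.07 (selectin side).

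By standing probe, all 8 tested members kept their direction when arrays were left out. Over the 6 such fits (4 for Vcam1, which had too few values without knockout replicate 2 or 3), the difference ranged from -1.45 to -0.90 for Icam1, from -1.36 to -0.83 for Icam2, from -0.87 to -0.63 for Selplg, from -0.58 to -0.43 for Vcam1 and from -1.14 to -0.57 for Itgb2. Itgam stayed between 0.13 and 0.34, whereas its other probe ran from -0.22 to 0.23. For the 5 members lower without overlap, leaving out 1 array could not turn the sign. The values of Icam1 and Icam2 nearest to 0 were those without knockout replicate 1, the array with the lowest endothelial median.

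**Figure D5:**
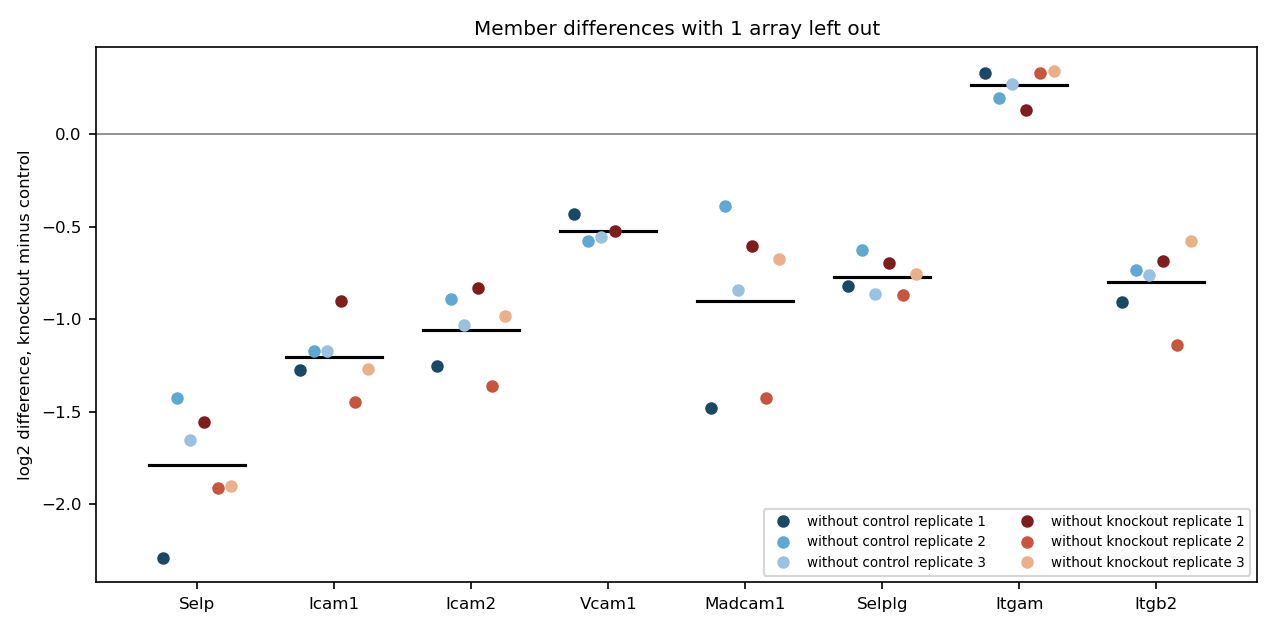
Log2 difference between knockout and control for the standing probe of each of 8 members, with all arrays (black bar) and with each array left out in turn (points). Every point lies below 0 except those of Itgam; Selp ranges from -2.29 to -1.42.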

How the data were processed

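Gene expression was measured with 1 single-colour Agilent array (design 074809) per mouse, 3 control and 3 Islr knockout. Groups come from the labels' genotype. Per the file headers, the deposited intensity of each spot (red processed signal) was detrended and background-subtracted in Feature Extraction 11.5.1.1 (10.7 per the submitters' processing notes), without scaling between arrays; the labels name Cy3 and a green column, but the files hold the red channel. The deposited value table holds the same intensities and was an alternative only.

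The log2 signal minus the array's 75th percentile was used; outlier spots were missing. Probes well above background on all arrays of a group, with at least 2 usable values in each group, entered limma 3.58.1 (R 4.3.3; lmFit, eBayes), two-sided, with Benjamini-Hochberg adjustment at 0.05. Probes were named by RefSeq accession (GRCm38.p6; 33767 of 56605 named). The files place probes on mm9, so no probe positions are given. The number of arrays limits the precision.

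The members, gene lists and motifs were chosen with earlier results of these data known. Genes were named if members, if passing within a list, or as extremes of a list; 1 listed gene is not reported here by name. The fit was tested on simulated data before use. Alternatives were the background correction, outlier spots, array weights, dim-probe filters, centring, the value table, averaging probes, and leaving out each array.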

Additional observations from a re-analysis of the deposited data

How the results depend on the processing

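The number of passing probes was 1403, and 2773 under normexp with quantile normalization, 7320 with array weights, 484 with no filter on dim probes, 2249 with median centring, and 40 to 2114 with an array left out. The share of calls higher in the knockout was 39.1%, 49.7% with array weights, and 10% to 55.1% with an array left out (knockout replicate 3 and control replicate 1). Passing members numbered 0, and 2 under normexp (Icam1 and Selplg), 4 with array weights (Selp, Selplg, Icam1 and Icam2), 1 with median centring (Icam1) and 0 to 2 with an array left out. Passing adhesion pathway genes numbered 0, and 5 under normexp, 3 with outlier spots kept, 12 with array weights, 4 with median centring, 1 in the value table and 0 to 3 with an array left out. Passing inducers numbered 1, and 4 under normexp, 2 with outlier spots kept, 5 with array weights, 0 with no filter, 2 with median centring and 0 to 1 with an array left out. Beside these counts, 3.82% of all genes passed, and 8.03% under normexp, 4.68% with outlier spots kept and 21.8% with array weights. The share was 1.11% with no filter, 6.07% with median centring, 4.59% in the value table and 0.16% to 6.16% with an array left out. Islr ranged from -2.58 to -2.34 in 4 fits. The cause of these changes was not tested. No paired analysis was possible because replicate numbers only name the mice. Sele, well above background on 3 of 6 arrays, is limited by its signal.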

Other observations

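Over the 14 member probes, knockout replicate 1 was the lowest knockout at 11 and knockout replicate 2 the highest at 10. Among controls, replicate 1 was the lowest at 9 and replicate 2 the highest at 11. These arrays therefore order alike across genes of different cells, and members are not independent of each other.

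The genes whose signal followed a member most closely over the 6 arrays, as a description across arrays that include both genotypes, were Lrrc14 (Pearson r 0.996), Cd84 (0.995) and Iqsec1 (0.995) for Itgb2, and Nfil3 (0.999), 4930503H13Rik (0.999) and Mettl6 (0.999) for Icam1. They were picked as the highest r among all named genes tested, over 6 arrays only, and no link was tested.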
